A study of Mus musculus with 8 samples.

Results

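The genes described here are the granins, Vgf and the enzymes that process prohormones in dense-core vesicles. They were taken from the deposited table by gene name: Vgf, Chga, Chgb, Scg2, Scg3, Scg5, Pcsk1, Pcsk2, Cpe and Pam, 10 of its 21761 genes. All 10 were found and all 10 passed the filter on low counts. C57BL/6 mice were used, and ribosome-bound RNA of their midbrain dopaminergic neurons was purified by translating ribosome affinity purification (TRAP), in which a tagged ribosomal protein is pulled down with the RNA it carries. The MPTP group (4 libraries) received intraperitoneal MPTP-HCl at 30 mg/kg free base once a day for 5 days. The saline group (4 libraries) received saline injections on the same schedule. Tissue of both groups was taken 4 days after the last injection. The age and sex of the mice, and the driver that restricts the tag to dopaminergic neurons, are not stated in the labels. Per the labels' protocols, RNA could come from the substantia nigra, the ventral tegmental area or both; the labels of these libraries name neither region, while the deposited table that holds them is titled SN.

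Dense-core vesicles store peptides and, in dopaminergic neurons, can also store dopamine. Their cargo is made as large precursors. Granins are acidic proteins that aggregate in the trans-Golgi network and help to form the vesicles, and several granins and Vgf are themselves precursors of secreted peptides. In the vesicle the prohormone convertases cut precursors after pairs of basic residues, carboxypeptidase E trims the exposed basic residues, and Pam amidates peptides that end in glycine. MPTP is a neurotoxin whose metabolite is taken up by dopaminergic neurons and inhibits mitochondrial complex I.

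Library totals ranged from 66450856 to 78892061 counts in MPTP and from 54192354 to 69333470 counts in saline. The labels do not say that replicates came from separate animals, so p-values measure the spread between these libraries, which may be technical. The summed level of 12 dopaminergic markers, Th and Slc6a3 among them, was 8943 to 10605 CPM (the count relative to the scaled library size, in the usual unit) in MPTP and 8013 to 13387 CPM in saline. Saline 3 held the lowest of these sums. As a mean log2 CPM, the same markers stood at 7.96 to 8.22 in MPTP. In saline they stood at 7.78 in saline 3 and at 8.35 to 8.41 in saline 1, 2 and 4. Their log2 fold changes, MPTP minus saline, were above 0 for 3 markers and below 0 for 9, beside 50.1% above 0 over all genes. Saline 3 also held the highest non-neuronal marker score, 3.38 on the log2 CPM scale. The other libraries lay at 2.69 to 3.21 in MPTP and at 2.34 to 2.69 in saline. The nuclear noncoding RNA Malat1 was at 1049 to 1745 CPM in MPTP, against 2194 CPM in saline 3 and 475 to 945 CPM in the other saline libraries. Several values that rest on saline 3 are therefore given with and without it. Markers of pituitary and adrenal endocrine cells, which are rich in granins, were scarce: Gh, Prl and Pnmt had at most 6 counts in any library, and Pomc averaged 3.57 ± 1.28 CPM over MPTP libraries and 2.99 ± 0.4995 CPM over saline libraries (SD, n = 4 each).

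Per length, the members spanned a wide range of levels. On the scale of CPM per kilobase of exonic sequence, Cpe, Scg2 and Scg5 were the highest. Cpe, the carboxypeptidase, stood at 132 ± 9.58 in MPTP libraries and 132 ± 12.7 in saline libraries (SD, n = 4 each). Scg2, the precursor of the peptide secretoneurin, stood at 139 ± 13.2 in MPTP and 123 ± 12.95 in saline. Scg5, which encodes the chaperone of the convertase Pcsk2, stood at 121 ± 8.83 in MPTP and 125 ± 8.53 in saline. The ranges of neighbouring genes among these 3 overlapped in both groups, so their order is not settled. The chromogranin gene Chgb followed at 34.3 ± 4.66 in MPTP and 34.6 ± 4.80 in saline. Scg3, which binds chromogranin A at the vesicle membrane, was at 26.1 ± 5.36 in MPTP and 22.6 ± 2.92 in saline. The amidating enzyme gene Pam was at 18.4 ± 1.14 in MPTP and 19.1 ± 1.46 in saline. Its rank depends on the length used, because its 15 annotated transcripts together cover 11.9 kb and the longest covers 4102 bases. Chga, the other chromogranin gene, was at 14.3 ± 1.497 in MPTP and 14.0 ± 1.68 in saline. The convertase gene Pcsk2 was at 11.4 ± 0.769 in MPTP and 10.3 ± 0.701 in saline. The lowest levels were those of Vgf (6.17 ± 1.38 in MPTP and 4.21 ± 0.897 in saline) and of the convertase gene Pcsk1 (3.27 ± 0.227 in MPTP and 3.45 ± 0.731 in saline). Vgf lay above Pcsk1 without overlap in MPTP, whereas their ranges overlapped in saline. In GENCODE vM21 the exons of 8 members overlap no exon of another gene. Antisense genes lie over exons of Pcsk2, namely Pcsk2os1 with 260 bases or 3.29% of its exonic length and Pcsk2os2 with 99 bases, and Pam shares 188 bases with a processed transcript on its own strand. The library kit does not mark strand, so reads there cannot be told apart.

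All 10 members are protein-coding, and their positions are given on GRCm38, the assembly also called mm10. Vgf is on chromosome 5 (137026392 to 137033351, plus strand). Chga is on chromosome 12 (102554969 to 102565028, plus strand) and Chgb on chromosome 2 (132781278 to 132795079, plus strand). Chromosome 2 also carries Scg5 (113776362 to 113829121, minus strand) and Pcsk2 (143546156 to 143816285, plus strand). Scg2 (79434669 to 79440120, minus strand) and Pam (97795114 to 98095646, minus strand) are on chromosome 1. Scg3 is on chromosome 9 (75643189 to 75684056, minus strand), Cpe on chromosome 8 (64592542 to 64693054, minus strand) and Pcsk1 on chromosome 13 (75089826 to 75134861, plus strand).

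Several granin genes and Pcsk1 are known to respond to neuronal activity through the cyclic AMP response element (CRE), and the members' promoters were searched for its letters. RefSeq windows on GRCm38.p6, from 250 bases before to 50 bases after a transcription start, were matched for 8 of the 10 members, all but Vgf and Cpe. The full element TGACGTCA, a palindrome, was searched on both strands and found in 3 of these 8 genes, Scg2, Chgb and Pcsk1, against 1.79% of all 32851 windows. Its core TGACG, which the full element contains, was found on either strand in 7 of the 8 genes, all but Pam, against 20.8% of windows. The pattern TGANTCA, with any base at N, was found in 0 of the 8, against 7.81% of windows. It is wider than the AP-1 element, which has C or G at N, so that share also counts windows with A or T there. A match is a description of the letters and not evidence of a bound site. The 30 bases around the element are shown 5′ to 3′ on the strand of the gene, with the match in capitals. They begin with Scg2 (chr1:79440076-79440105, minus strand, the match starting 68 bases before the RefSeq start), followed by Chgb (chr2:132781559-132781588, plus strand, 72 bases before) and Pcsk1 (chr13:75089768-75089797, plus strand, 78 bases before). Chga (chr12:102554885-102554914, plus strand, 44 bases before) holds the core only. For Scg2 and Chgb, GENCODE places the gene's start further upstream, so these 30 bases lie inside its annotated gene.
Scg2: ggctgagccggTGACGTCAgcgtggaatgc
Chgb: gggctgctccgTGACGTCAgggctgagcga
Pcsk1: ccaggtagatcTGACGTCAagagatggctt
Chga: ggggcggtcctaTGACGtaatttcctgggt

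The main comparison asks whether dopaminergic neurons of mice given MPTP carried more or less ribosome-bound RNA of these genes than those of mice given saline. Of the 10 members, 0 were higher and 0 were lower past the threshold of an adjusted p of 0.05 by edgeR's quasi-likelihood test, where 0.075% and 0.0313% of the 15999 genes tested were called higher and lower. DESeq2 and limma voom also called 0 members. Without saline 3, edgeR again called 0 higher and 0 lower, against 0.853% and 0.983% of genes. At an unadjusted p under 0.05, 1 member was higher (Vgf) and 0 were lower, against 4.28% and 4.5% of all genes. No member separated the groups completely, against 2.04% of genes with every MPTP library higher and 2.14% with every MPTP library lower. The members' median log2 fold change was 0.018, with 6 of 10 above 0, beside a median of 0.00056 and 50.1% above 0 over all genes. In bulk RNA of this kind, fewer cells of a type and less RNA per cell cannot be told apart.

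**Figure D1:**
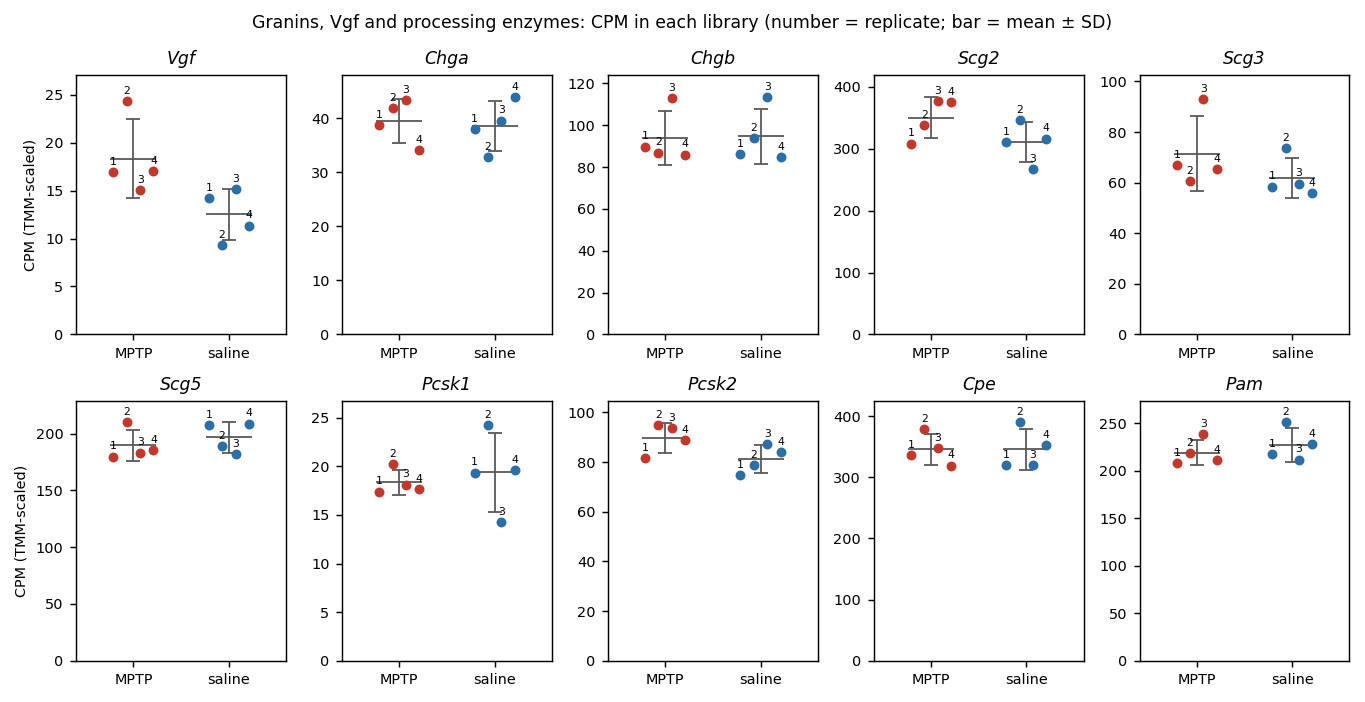
CPM (vertical axes, from 0) of each of the 10 members in the 4 MPTP and 4 saline libraries; each point is a library with its replicate number, and bars give the mean ± SD. Vgf shows the widest separation of means relative to its level, with 18.3 CPM for MPTP and 12.5 CPM for saline, while Cpe has a mean of 346 CPM in both groups.

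Vgf encodes a secreted precursor of several peptides and is induced by neurotrophins and by nerve injury. It had 17.0, 24.3, 15.03 and 17.0 CPM in MPTP replicates 1 to 4, against 14.2, 9.32, 15.1 and 11.4 CPM in saline replicates 1 to 4. Saline 1, 2 and 4 lay below every MPTP library, and saline 3 lay just above the lowest MPTP library, so the groups overlapped by 1 library. Vgf averaged 18.3 ± 4.11 CPM over the MPTP libraries and 12.5 ± 2.67 CPM over the saline libraries (SD, n = 4 each). The log2 fold change was 0.55 (SE 0.17), a 1.47-fold difference with a 95% interval of 1.13 to 1.89, and it did not pass edgeR's test over all genes (adjusted p = 0.415, unadjusted p = 0.00607). Without saline 3 the log2 fold change was 0.66 (SE 0.18, edgeR adjusted p = 0.0723), and Vgf then separated the groups, as did 7.19% of genes with every MPTP library higher. The libraries lowest in Vgf, saline 2 and saline 4, were also the lowest in non-neuronal score (2.34 and 2.50), and the library highest in Vgf, MPTP 2, had the highest score of its group (3.21). Other libraries went against that order. Saline 3 had the highest score of all (3.38) and 15.1 CPM of Vgf, while MPTP 1 and MPTP 4 had lower scores (2.93 and 2.69) and 17.0 CPM each. With that score as a covariate the log2 fold change of Vgf was 0.42 (SE 0.15, edgeR adjusted p = 0.479).

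The chromogranin genes had like means in both groups. Chga had 38.7, 41.8, 43.4 and 34.0 CPM in MPTP, against 37.9, 32.7, 39.5 and 43.9 CPM in saline. Each group spanned most of the range of the other, and the log2 fold change was 0.04 (SE 0.11, edgeR adjusted p = 0.951). Chgb had 89.8, 87.0, 112.9 and 86.0 CPM in MPTP, against 86.4, 93.9, 113.5 and 84.9 CPM in saline. In each group replicate 3 stood above the others, and the log2 fold change was -0.01 (SE 0.11, edgeR adjusted p = 0.987). Without saline 3 the log2 fold change of Chgb was 0.088 (SE 0.10, edgeR adjusted p = 0.723). The 95% intervals ran from 0.873-fold to 1.20-fold for Chga and from 0.844-fold to 1.17-fold for Chgb, so larger differences lie outside them, while smaller ones cannot be told from none with these libraries.

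The secretogranins did not pass the test either. Scg2 had 308, 338, 377 and 376 CPM in MPTP, against 311, 347, 268 and 316 CPM in saline. Only MPTP 3 and MPTP 4 lay above every saline library, saline 3 was the lowest of all, and the log2 fold change was 0.17 (SE 0.10, edgeR adjusted p = 0.628). When the non-neuronal score was a covariate it was 0.24 (SE 0.08, edgeR adjusted p = 0.457, unadjusted p = 0.00708), and without saline 3 it was 0.11. Scg3 had 66.9, 60.5, 93.1 and 65.4 CPM in MPTP, against 58.4, 73.7, 59.6 and 56.0 CPM in saline. MPTP 3 alone exceeded every saline library, and the log2 fold change of 0.21 (SE 0.13, edgeR adjusted p = 0.667) was 0.06 without MPTP 3. Without saline 2 it was 0.30 for Scg3 (edgeR adjusted p = 0.715, unadjusted p = 0.0283) and 0.23 for Scg2 (edgeR adjusted p = 0.726, unadjusted p = 0.0319). Scg5 had 180, 210, 183 and 186 CPM in MPTP, against 207, 189, 182 and 209 CPM in saline. Both groups covered nearly the same span, with a log2 fold change of -0.05 (SE 0.08, edgeR adjusted p = 0.896).

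**Figure D2:**
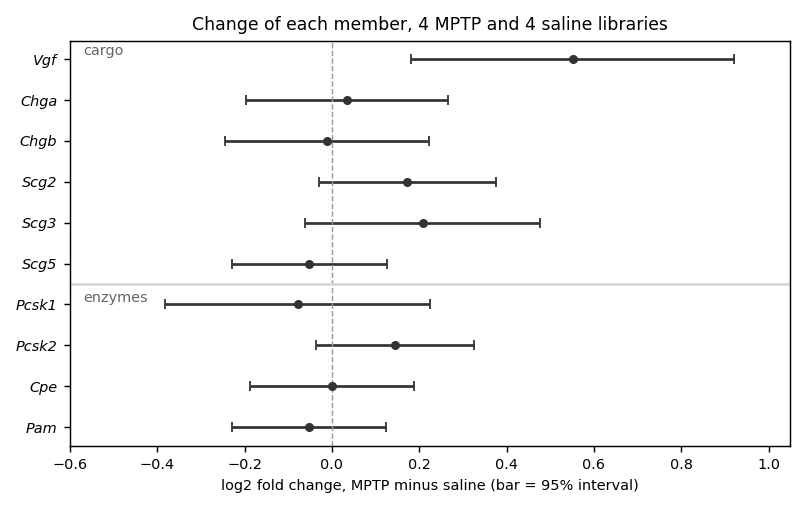
Log2 fold change of each member, MPTP minus saline (horizontal axis), with its 95% interval, cargo genes above and enzymes below; each estimate rests on 4 MPTP and 4 saline libraries. The interval of Vgf (0.18 to 0.92) is the only one of the 10 that leaves out 0, and none of the 10 passed the test over all genes.

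Of the processing enzymes, the convertase gene Pcsk1 varied most among the saline libraries. Pcsk1 encodes the convertase PC1/3, which acts early on most precursors. It had 17.4, 20.2, 18.1 and 17.6 CPM in MPTP, against 19.4, 24.2, 14.2 and 19.6 CPM in saline. The MPTP libraries sat together inside the saline range, whose ends were saline 2 and saline 3, and the coefficient of variation was 6.93% in MPTP and 21.1% in saline. The log2 fold change was -0.08 (SE 0.14, edgeR adjusted p = 0.909). It was -0.20 without saline 3, and its direction turned when saline 2 was left out (0.049) or when the fit included the non-neuronal score (0.035). Pcsk2 encodes PC2, which cuts smaller intermediates. It had 81.6, 95.04, 93.7 and 88.9 CPM in MPTP, against 74.8, 78.9, 87.3 and 84.1 CPM in saline. All but MPTP 1 lay above every saline library, and the log2 fold change was 0.14 (SE 0.09, edgeR adjusted p = 0.650). Without saline 3 the log2 fold change of Pcsk2 was 0.18 (SE 0.09, edgeR adjusted p = 0.305, unadjusted p = 0.0539).

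The enzymes that finish the peptides had similar means in both groups. Cpe had 336, 379, 348 and 319 CPM in MPTP, against 321, 390, 320 and 352 CPM in saline. The groups covered nearly the same span, with means of 346 ± 25.0 CPM over MPTP libraries and 346 ± 33.1 CPM over saline libraries (SD, n = 4 each), and the 95% interval of the difference ran from 0.877-fold to 1.14-fold. Pam had 208, 219, 238 and 211 CPM in MPTP, against 217, 251, 212 and 228 CPM in saline. MPTP 1 and MPTP 4 lay just below every saline library, and the log2 fold change was -0.05 (SE 0.08, edgeR adjusted p = 0.895), with a 95% interval of 0.854-fold to 1.09-fold.

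As a group, the 6 cargo genes summed to 700, 762, 825 and 764 CPM in MPTP, against 715, 745, 677 and 721 CPM in saline. Before scaling, their share of all counts was 0.0728% to 0.0839% in MPTP and 0.0697% to 0.0719% in saline, without overlap. With the scaled library sizes MPTP 1 lay inside the saline range, so the separation depends on the scaling. The 4 enzymes summed to 643, 713, 698 and 637 CPM in MPTP, against 632, 744, 633 and 684 CPM in saline, with the highest sum in saline 2. The members did not vary as a block: saline 2 was the lowest library for Vgf and Chga and the highest for Pcsk1, Cpe and Pam, and MPTP 3 was the highest for Scg2 and Scg3.

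**Figure D3:**
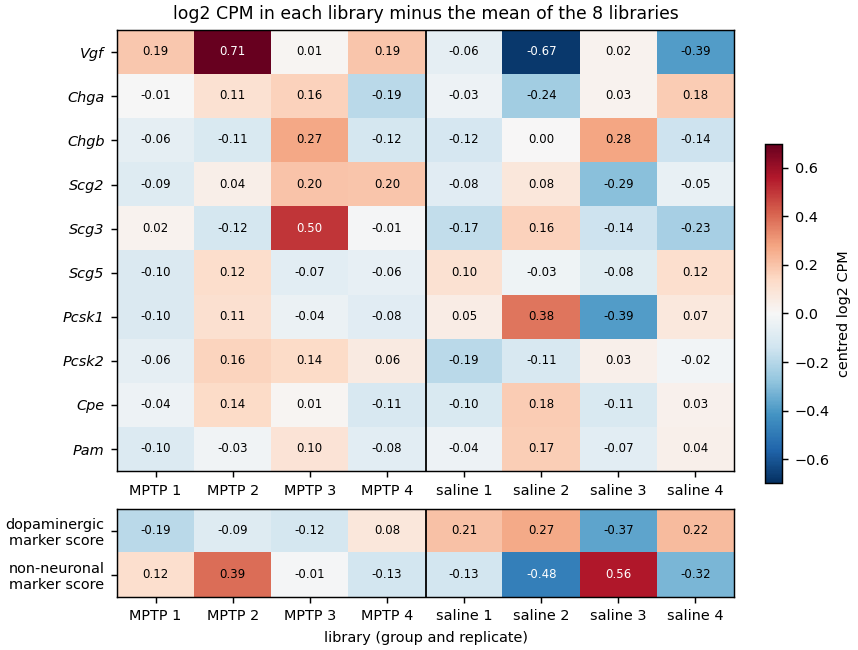
Log2 CPM of each member in each library minus its mean over the 8 libraries (colour and printed value), with the dopaminergic and non-neuronal marker scores treated alike in the lower panel. The library saline 2 runs from -0.67 for Vgf to 0.38 for Pcsk1, and saline 3 is the highest in non-neuronal score and the lowest in dopaminergic score.

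Ratios of partner genes within a library do not depend on library scaling, and 4 such pairs were compared by exact two-sided permutation over the 70 assignments, with adjustment over the 4 pairs. The log2 ratio of Pcsk1 to Pcsk2 was -2.23, -2.23, -2.37 and -2.33 in MPTP, against -1.95, -1.70, -2.61 and -2.10 in saline. The MPTP values were tightly grouped below 3 of the saline libraries and above saline 3, and the difference of -0.20 did not pass (exact permutation p = 0.371, adjusted 0.495). The log2 ratio of Scg5 to Pcsk2, a chaperone and its enzyme, was 1.14, 1.14, 0.97 and 1.06 in MPTP, against 1.47, 1.26, 1.06 and 1.31 in saline. Saline 3 was the only saline library within the MPTP range, and the difference of -0.20 did not pass either (exact permutation p = 0.114, adjusted 0.229). Without saline 3 both ratios were lower in each MPTP library than in each saline library, with differences of -0.37 and -0.27 and an exact permutation p of 0.0286 (adjusted 0.0571), the smallest that 4 against 3 libraries can give. Without saline 2 the difference was -0.070 for Pcsk1 to Pcsk2 (exact permutation p = 0.743) and -0.20 for Scg5 to Pcsk2 (exact permutation p = 0.143).

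Pcsk1n encodes proSAAS, a granin-like protein that inhibits PC1/3. It had 301, 467, 270 and 375 CPM in MPTP, against 251, 200, 239 and 300 CPM in saline. Only MPTP 3 lay below the highest saline library, and the log2 fold change of 0.51 (SE 0.15) did not pass (edgeR adjusted p = 0.414, unadjusted p = 0.00450). The log2 ratio of Pcsk1n to Pcsk1 averaged 4.24 ± 0.29 over MPTP libraries and 3.68 ± 0.46 over saline libraries (SD, n = 4 each), and differed by 0.55 (exact permutation p = 0.0857, adjusted 0.229). The log2 ratio of Scg3 to Chga, which bind each other in the vesicle, averaged 0.84 ± 0.24 over MPTP libraries and 0.68 ± 0.35 over saline libraries (SD, n = 4 each), and differed by 0.16 (exact permutation p = 0.514, adjusted 0.514).

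**Figure D4:**
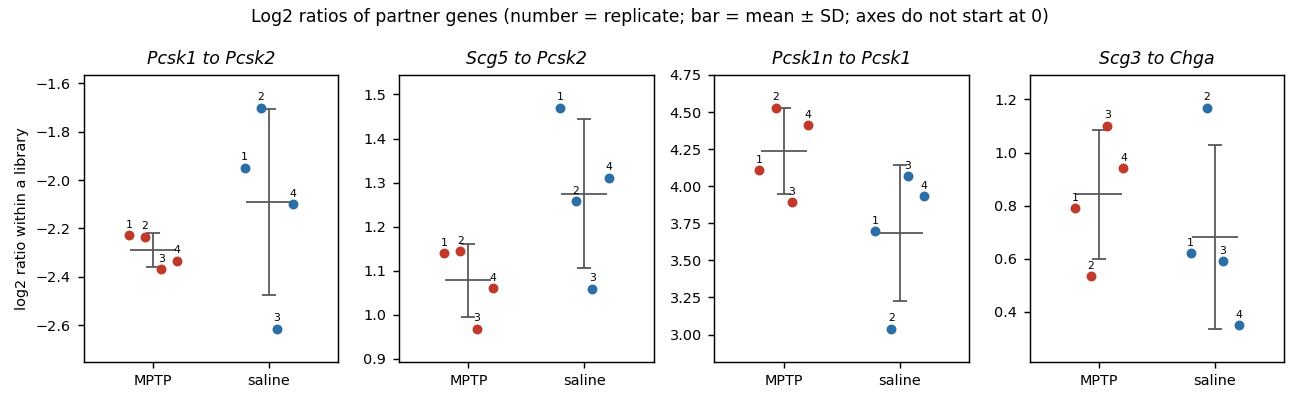
Log2 ratio of 4 pairs of partner genes within each library (vertical axes, which do not start at 0); points are libraries with their replicate number, and bars give the mean ± SD of the 4 MPTP and the 4 saline libraries. In the first pair of panels saline 3 is the saline library that lies within or below the MPTP values.

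Other genes of the dense-core vesicle were counted from lists, in which 143 of 154 genes could be tested. The lists were chosen with earlier results of these data known, so the counts are descriptions and no independent test. Of the 143, 1 was called higher and 0 lower by edgeR, beside 0.075% and 0.0313% of all genes. At an unadjusted p under 0.05, 17 of the 143 were higher and 9 were lower, beside 4.28% and 4.5% of all genes. The called gene was the neuropeptide gene Nms, with 2.64 ± 0.743 CPM over MPTP libraries and 0.337 ± 0.144 CPM over saline libraries (SD, n = 4 each, log2 fold change 2.97, edgeR adjusted p = 0.00544). Every MPTP library was above every saline library, as in 2.04% of all genes. The call ended without MPTP 4, the highest library (log2 fold change 2.78, edgeR adjusted p = 0.0754), and with limma voom (2.98, adjusted p = 0.0547). Across 34 tested neuropeptide and growth factor genes, 28 were above 0 with a median log2 fold change of 0.34. Over all genes 50.1% were above 0 with a median of 0.00056, and the list counts below stand beside the same share. Several of the 34 averaged under 1 CPM in both groups, Gal, Trh, Calcb and Pmch among them. Of markers of other neurons, 3 of 4 GABAergic, 3 of 3 glutamatergic and 2 of 3 serotonergic genes were above 0. Their sums were highest in saline 3, at 489, 106 and 46.6 CPM. In MPTP they ran from 339 to 444, 71.9 to 94.0 and 24.7 to 41.3 CPM. The lowest saline sums were 339, 58.9 and 13.4 CPM. The part of such neurons in the values of the neuropeptide list was not tested. After Nms, the next by p in this list were Calca, the precursor of calcitonin gene-related peptide (1.10, edgeR adjusted p = 0.321), the hormone gene Pthlh (0.95, adjusted p = 0.394) and the peptide gene Cck (0.45, adjusted p = 0.415). Calca and Pthlh were also without overlap, with MPTP higher, and Cck overlapped.

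Genes of vesicle release did not pass edgeR's test with all 8 libraries. Of 45 tested genes of docking and release, 0 were called, 17 were above 0 and 28 below, and the median log2 fold change was -0.04. Cadps encodes CAPS1, which primes dense-core vesicles for fusion. It had 327, 278, 291 and 295 CPM in MPTP, against 380, 400, 344 and 367 CPM in saline. Every MPTP library was lower than every saline library, as in 2.14% of all genes. The log2 fold change of -0.32 (SE 0.08) did not pass with edgeR (adjusted p = 0.321, unadjusted p = 0.00125). It did pass with DESeq2 (adjusted p = 0.0367) and, by edgeR, without saline 3 (log2 fold change -0.36, adjusted p = 0.0311). The vesicle GTPase gene Rab3c (-0.63, edgeR adjusted p = 0.321) and the complexin gene Cplx1 (-0.35, adjusted p = 0.439) were also below 0, and the SNARE gene Vamp3 was above 0 (0.32, adjusted p = 0.488). All 3 passed without saline 3, with log2 fold changes of -0.78, -0.44 and 0.48. Over all genes, 0.853% were then called higher and 0.983% lower. The mean log2 CPM of the dopaminergic markers was 8.35 to 8.41 in saline 1, 2 and 4, above the 7.96 to 8.22 of MPTP. With all 8 libraries, 9 of these 12 markers were below 0, Ddc (-0.54) and Aldh1a1 (-0.44) among them, 3 were above 0, and 0 were called. The part of these markers in the values here was not tested. When the non-neuronal score was a covariate over all 8 libraries, the log2 fold changes were -0.29 for Cadps, -0.46 for Rab3c, -0.28 for Cplx1 and 0.25 for Vamp3, and 0 of the 4 passed edgeR's test, as without the covariate.

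**Figure D5:**
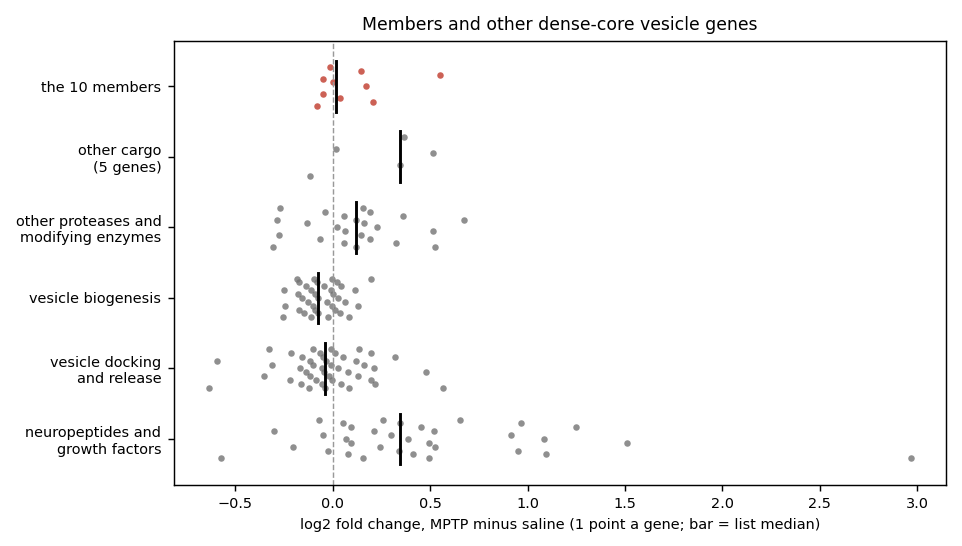
Log2 fold change, MPTP minus saline (horizontal axis), of the 10 members and of the tested genes of 5 lists; each point is a gene and each black bar the median of its list. The median is 0.02 for the members, 0.34 for neuropeptides and growth factors and -0.08 for vesicle biogenesis.

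Of 37 tested genes of vesicle biogenesis, 0 were called, 11 were above 0 and 26 below, with a median log2 fold change of -0.08. The adaptor subunit gene Ap1s2 (-0.24, edgeR adjusted p = 0.429) and the golgin gene Golga1 (-0.25, adjusted p = 0.519) had every MPTP library below every saline library, as did 2.14% of all genes. The proton pump accessory gene Atp6ap2 (-0.25, edgeR adjusted p = 0.492) and the vesicle membrane protein gene Ptprn (0.20, adjusted p = 0.558) overlapped between the groups. Of 24 tested genes of other proteases and modifying enzymes, 0 were called, 17 were above 0 and the median was 0.12. The convertase gene Pcsk6 averaged 8.14 ± 0.592 CPM over MPTP libraries and 5.10 ± 0.875 CPM over saline libraries (SD, n = 4 each), without overlap (log2 fold change 0.67, edgeR adjusted p = 0.325). Over all genes, 2.04% had every MPTP library higher. Next by p in this list were Pcsk1n, described above, the carboxypeptidase gene Cpm (0.53, edgeR adjusted p = 0.415) and the peptidase gene Nln (-0.27, adjusted p = 0.506). Nln too was without overlap, with MPTP lower. Of 5 other cargo genes, Pcsk1n among them, 0 were called and the median was 0.34. Pcsk1n is counted both here and among the proteases, and Cartpt both here and among the neuropeptides. The satiety peptide gene Cartpt was at 0.34 (edgeR adjusted p = 0.491), the neuropeptide gene Npw at 0.37 (adjusted p = 0.725) and the nesfatin precursor gene Nucb2 at -0.12 (adjusted p = 0.873). Astrocyte markers summed to 293 to 319 CPM in MPTP and 252 to 331 CPM in saline, and oligodendrocyte markers to 1143 to 1319 CPM in MPTP and 786 to 1674 CPM in saline, with saline 3 the highest library for both. Microglia markers summed to 54.5 to 64.4 CPM in MPTP and 50.8 to 63.5 CPM in saline, and endothelial markers to 8.65 to 14.3 CPM in MPTP and 7.99 to 19.99 CPM in saline. Of these markers, 9 of 9 astrocyte, 8 of 9 oligodendrocyte, 5 of 9 microglia and 2 of 8 endothelial genes were above 0, and their part in the values of these lists was not tested beyond the covariate.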

How the data were processed

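The authors deposited raw counts per gene for 8 libraries. TopHat2 2.0.8 and the mm10 build were used, per the submitters' processing notes; how reads were counted, with which annotation and strand setting, is not given in the sources used here. Of the symbols, 27 read as dates were restored by Entrez identifier, and 90 genes had none. Counts were analysed in R 4.3.3 with edgeR 4.0.16: TMM scaling, filterByExpr (15999 genes kept), a robust quasi-likelihood F-test without covariates, and Benjamini-Hochberg adjustment over all genes tested, with a threshold of 0.05. SE was derived from the F statistic (size of the log2 fold change over √F), and 95% intervals use the fit's degrees of freedom. Log2 CPM used a prior count of 2. The non-neuronal score is the mean log2 CPM of astrocyte, oligodendrocyte, microglia and endothelial markers, each list weighted equally. The script was tested on simulated counts. Alternatives were DESeq2 1.42.0, limma 3.58.1 voom with sample weights, other scalings and filters, a covariate, a replicate block and leaving out each library. Members and lists were chosen with earlier results of these data known. Named list genes are those called and the 4 with the smallest p in each list. Levels per kilobase used exonic union lengths of GENCODE vM21. No pair of replicates agreed within sampling noise. Protein sequences were not used here.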

Additional observations from a re-analysis of the deposited data

Results flagged for a closer look

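Chgb in the MPTP group was the 1 result of 28 checked in which a single library stood far from the other 3: MPTP 3 had 112.9 CPM, and the other MPTP libraries had 86.0 to 89.8 CPM. The gap took up 0.858 of the group's whole range, above Dixon's critical value for a group of 4. Chance alone flags about 1 in 20 such groups. The highest saline library, saline 3, had a like level of 113.5 CPM. Without MPTP 3 the log2 fold change of Chgb was -0.11, and it did not pass (edgeR adjusted p = 0.793).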

How the results depend on the processing

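In each of the 16 alternatives 0 members were called higher and 0 lower. The direction held in all 16 for Vgf (log2 fold change 0.39 to 0.66, edgeR or other tool's adjusted p 0.0723 to 0.773), Scg2, Scg3, Scg5 and Pcsk2. It turned for genes near 0: Cpe (-0.0027 with DESeq2 size factors, -0.0027 with DESeq2, -0.014 with limma voom, and -0.046 to 0.064 leaving out 1 library), Chgb (0.029 with limma voom, -0.11 to 0.088 leaving out 1 library), Pcsk1 (0.035 with the covariate, -0.20 to 0.049 leaving out 1 library), Chga (-0.035 to 0.11) and Pam (-0.094 to 0.00058) leaving out 1 library; the cause was not tested. Pathway-list genes called higher numbered 0 with a mean CPM of at least 5, where Nms was not tested, 0 with limma voom, 2 with DESeq2 (Nms and Calca) and 0 to 4 leaving out 1 library; those lower numbered 1 with DESeq2 (Cadps) and 0 to 4 leaving out 1 library. Without saline 3 the called list genes included Cadps2, Doc2b and Pclo, named after their values were seen, and without saline 4 Cck. Leaving out saline 3, 0.853% of all genes were called higher and 0.983% lower. The call on Nms ended without MPTP 4. Over all genes, 12 were called higher and 5 lower; 7 were higher with a mean CPM of at least 5, DESeq2 called 25 higher and 30 lower, and leaving out 1 library gave 8 to 138 higher and 0 to 159 lower, the largest counts without saline 3. The 4 partner ratios kept their sign in their 10 alternatives. None passed, which the design largely fixes: at the smallest p of 0.0286, at least 3 of the 4 ratios would have to reach it to pass after adjustment, and the replicate block allows no p below 0.125. They ranged from -0.37 to -0.070 (Pcsk1 to Pcsk2), -0.27 to -0.13 (Scg5 to Pcsk2), 0.34 to 0.68 (Pcsk1n to Pcsk1) and 0.048 to 0.32 (Scg3 to Chga). Per kilobase of the longest transcript the levels were 20.96 in MPTP and 20.5 in saline for Chga, 157 and 163 for Scg5, 19.0 and 17.2 for Pcsk2, 163.2 and 163.2 for Cpe, 53.4 and 55.4 for Pam, 3.64 in MPTP for Pcsk1 and 25.97 in saline for Scg3. Replicate numbers were not taken as pairs: same-numbered libraries deviated with correlations of -0.116 to 0.0388, and not every library correlated best with its own number. With the replicate block edgeR called 10 genes higher and 4 lower, 0 of them members, and Vgf stood at 0.55 (adjusted p = 0.661). The amplified reads carry no molecular identifiers, so depth does not show how many molecules were sampled.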

Other observations

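The genes whose pattern over the 8 libraries was most like that of Vgf were Tbkbp1, Cartpt and Ppapdc1a, with root mean square differences of 0.139, 0.142 and 0.146 in centred log2 CPM, among 12101 candidates. Vgf itself varied by 0.385 around its mean on that scale. Cartpt encodes a neuropeptide precursor and had 48.1, 54.3, 38.4 and 41.5 CPM in MPTP, against 38.4, 28.0, 43.2 and 34.0 CPM in saline, with the lowest value in saline 2 and the highest in MPTP 2, as for Vgf. None of these genes was a member, and none passed edgeR's test (adjusted p = 0.517, 0.491 and 0.537).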
